A study of Mus musculus with 419 samples.

Results

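The genes described here are 8 feedback inhibitors of the ERK pathway: the phosphatases Dusp4, Dusp5 and Dusp6, the Sprouty genes Spry1, Spry2 and Spry4, and the Spred genes Spred1 and Spred2. They were taken by name and not by a limit on a measured value, though with earlier results of these data known. They are 8 of 35126 genes with a value, and their transcripts fill 13 of the 117762 rows of each allele table. The study measured each allele of a gene separately in single cells of F1-21.6, a female hybrid mouse embryonic stem (ES) cell line that carries a 129 and a CAST chromosome set, to follow transcriptional bursting. All 419 cells were in G1, untreated, and grown without feeder cells on the laminin LN511 in Std medium, which holds fetal bovine serum and leukemia inhibitory factor. Each cell was read by RamDA-seq, which covers whole transcripts of total RNA. Because no separate cultures are named, the cells form 1 sample of 1 line: values are descriptions, no test was made from cells, and every SD is over the 5 sequencing lanes of 88, 83, 82, 80 and 86 cells, a spread that may be technical.

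ERK signalling runs from a growth factor receptor through adaptors to RAS and on through the kinases RAF, MEK and ERK. Active ERK phosphorylates transcription factors of the ETS family and others, and among the genes it switches on are its own inhibitors, which makes a negative feedback loop. DUSP proteins remove the activating phosphates from ERK, DUSP6 in the cytoplasm and DUSP4 and DUSP5 in the nucleus. Sprouty and SPRED proteins act further up, between the receptor and RAF, and SPRED proteins bring the RAS inhibitor neurofibromin to the membrane. In mouse ES cells FGF4 made by the cells themselves activates this pathway, and its activity favours exit from the naive state. Transcription comes in bursts from each allele separately, so a measure of both alleles in the same cell shows how far they rise and fall together.

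Promoter sequences from RefSeq (GRCm38.p6) were matched for 6 of the 8 genes. Of these, 3 are printed because their genes had the largest intrinsic noise, a difference between alleles within cells, for their mean level. Each runs from 250 bases before the RefSeq start up to the GENCODE start, on the gene's own strand; in Dusp5 the GENCODE start lies further upstream, which leaves 214 bases. The Dusp5 stretch is chr19:53528895-53529108 (+), the Dusp6 stretch is chr10:99262981-99263230 (+) and the Spry2 stretch is chr14:105896820-105897069 (-). Capitals mark 2 CArG boxes, the element bound by the serum response factor SRF, in Dusp5, and in Dusp6 a CTTCCT, which is the ETS core AGGAAG on the opposite strand. The Dusp5 stretch also holds a CTTCCT, which is left in lower case. No letters are capitalised in Spry2.
Dusp5: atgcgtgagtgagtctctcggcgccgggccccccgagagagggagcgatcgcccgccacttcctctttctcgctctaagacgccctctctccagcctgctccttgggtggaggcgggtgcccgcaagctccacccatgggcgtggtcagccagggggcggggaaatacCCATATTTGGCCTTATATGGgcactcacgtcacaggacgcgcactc
Dusp6: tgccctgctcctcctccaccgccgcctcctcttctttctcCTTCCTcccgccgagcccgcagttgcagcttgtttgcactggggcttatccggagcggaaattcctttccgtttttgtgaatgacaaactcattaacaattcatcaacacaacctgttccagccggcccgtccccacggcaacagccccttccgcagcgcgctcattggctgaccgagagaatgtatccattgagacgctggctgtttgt
Spry2: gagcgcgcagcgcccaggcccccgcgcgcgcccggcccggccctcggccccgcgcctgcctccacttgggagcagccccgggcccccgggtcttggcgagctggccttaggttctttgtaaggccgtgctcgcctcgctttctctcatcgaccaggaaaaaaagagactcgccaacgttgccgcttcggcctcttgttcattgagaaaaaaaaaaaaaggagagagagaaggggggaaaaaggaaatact
The CArG boxes of Dusp5, CCATATTTGG and CCTTATATGG, lie directly beside each other, 46 to 37 and 36 to 27 bases before the end of the printed stretch, that is 82 to 73 and 72 to 63 bases before the RefSeq start. At least 1 CArG box was found in 1.63% of 32851 promoters of the same length and in 1 of the 6 inhibitor promoters, and 2 or more were found in 6 promoters (0.0183%), Dusp5 among them. AGGAAG, searched on both strands, was found in Dusp5, Dusp6 and Spred2 and in 35.4% of all promoters. CCGGAA, another ETS core, was found in Spry2, after the start, and in 14.9% of promoters. TGACG, the core of the cyclic AMP response element, was found in Dusp5 and Spred2 and in 20.8% of promoters, and GGGCGG in 4 of the 6 and in 35.7%. These motifs were picked after the data were seen, and a match is a description of letters, not of a bound site.

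Values are the authors' scaled allele counts, here scaled again to a common cell total and summed over both alleles where no allele is named; the deposited totals ran from 698363 to 1477656 per cell with a median of 925852, and the number of reads behind them is unknown. The sum of 9 ES cell markers had a median of 2542. It lay under 10% of that in 13 cells (3.10%), between 1 and 5 in each lane, a limit chosen after the data were seen. The sum of 7 fibroblast markers had a median of 273 (3.18 to 2567) in these 13 cells, against 7.40 (0 to 169) in the other 406 cells. The primitive endoderm, trophectoderm, mesendoderm, neural and 2-cell-like marker sums had medians of 5.93, 21.6, 1.99, 36.0 and 0. The 13 cells made up 6 of the 10 highest cells for Dusp5, 2 of the 10 highest for Dusp4 and for Spry1, and none for the other 5 genes, so the main values of Dusp5 are also given without them. Without the 13 cells the highest cell was 381 for Dusp5, 108.1 for Dusp4 and 70.6 for Spry1.

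All 8 inhibitors were read in most cells, and 297 of 419 cells (70.9%) had a value for every one of them. Per kilobase of transcript, the scale on which genes can be set side by side, the mean level was highest for Spry2 (29.5 ± 2.00 per kb, SD over 5 lanes) and Spred1 (27.5 ± 2.51 per kb). Spry4 followed at 17.6 ± 2.07 per kb, Dusp6 at 14.3 ± 1.11 per kb, Spred2 at 10.3 ± 0.46 per kb and Dusp5 at 9.95 ± 2.82 per kb. Dusp4 at 7.02 ± 0.73 per kb and Spry1 at 3.72 ± 0.31 per kb were lowest. Each level is that of the gene's largest row, which held 62.1% of the sum of Spred2 and 75.7% of Spry1. With all rows summed the mean of Spred2 was 74.0 per cell, against 45.9 for its largest row. The place of Spred2 and its steps to its neighbours thus hold for that row only. The lane means of neighbours in this order overlapped for Spry2 with Spred1, Spry4 with Dusp6, Spred2 with Dusp5 and Dusp5 with Dusp4, and did not overlap at the steps between Spred1 and Spry4, Dusp6 and Spred2, and Dusp4 and Spry1.

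Among the phosphatases, Dusp4 (chromosome 8, 34807297 to 34819894, mm10, plus strand; 4 exons) ran from 0 through a median of 12.1 to 173 per cell, with a mean of 19.2 ± 1.96 (SD, 5 lanes). It was seen in 375 cells (89.5%, exact binomial interval 86.2% to 92.3%, which covers counting error only). Dusp5 (chromosome 19, 53529109 to 53542431, plus strand; 4 exons) ran from 0 through a median of 14.0 to 1181 per cell, with a mean of 24.6 ± 7.06 and a value in 408 cells (97.4%). Its highest cell, in lane 2, held 273 from 129 and 908 from CAST, which is 11.5% of the gene's sum over all cells. The lane means were 36.4 in lane 2 and between 18.5 and 24.5 in the other lanes, and without the 13 cells low in ES markers the mean was 19.4. An antisense gene, AC137853.2, overlaps the start of Dusp5 in the annotation. Dusp6 (chromosome 10, 99263231 to 99267488, plus strand; 3 exons), the cytoplasmic ERK phosphatase, ran from 0 through a median of 25.1 to 512 per cell, with a mean of 39.9 ± 3.05 and a value in 406 cells (96.9%).

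Among the Sprouty genes, Spry1 (chromosome 3, 37639947 to 37644598, plus strand; 3 exons) ran from 0 through a median of 7.01 to 104 per cell, with a mean of 9.12 ± 0.78 and a value in 86.6% of cells. Its row held 75.7% of the gene's sum over 3 rows, and the antisense gene Gm42922 overlaps its start. The sources used here do not give whether reads were counted by strand, so reads of Spry1 and Dusp5 and of their antisense partners cannot be told apart in the overlaps. Spry2 (chromosome 14, 105891947 to 105896819, minus strand; 2 exons) ran from 0 through a median of 55.0 to 419.7 per cell, with a mean of 61.5 ± 3.95 and a value in 409 cells (97.6%). Spry4 (chromosome 18, 38586247 to 38601415, minus strand; 2 exons) ran from 0 through a median of 60.3 to 537 per cell, with a mean of 83.5 ± 9.88 and a value in 92.4% of cells. Cells with no value at all numbered 32 for Spry4, 10 for Spry2 and 56 for Spry1.

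The Spred genes were the most evenly spread over cells. Spred1 (chromosome 2, 117121374 to 117182279, plus strand; 7 exons) ran from 0 through a median of 153 to 609.8 per cell, with a mean of 165 ± 14.8 and a value in 99.0% of cells. Spred2 (chromosome 11, 19924375 to 20024026, plus strand; 7 exons) ran from 0 through a median of 43.3 to 139 per cell, with a mean of 45.9 ± 1.93 and a value in 416 cells (99.3%). Its row held 62.1% of the gene's sum over 3 rows, and over cells it correlated with the next row at 0.37 (Spearman). The 42 highest cells of a gene held 46.6% of the sum of Dusp5, 40.6% of Dusp6, 36.3% of Dusp4, 34.8% of Spry4 and 32.4% of Spry1, against 26.6% of Spry2, 23.0% of Spred1 and 19.4% of Spred2.

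**Figure D1:**
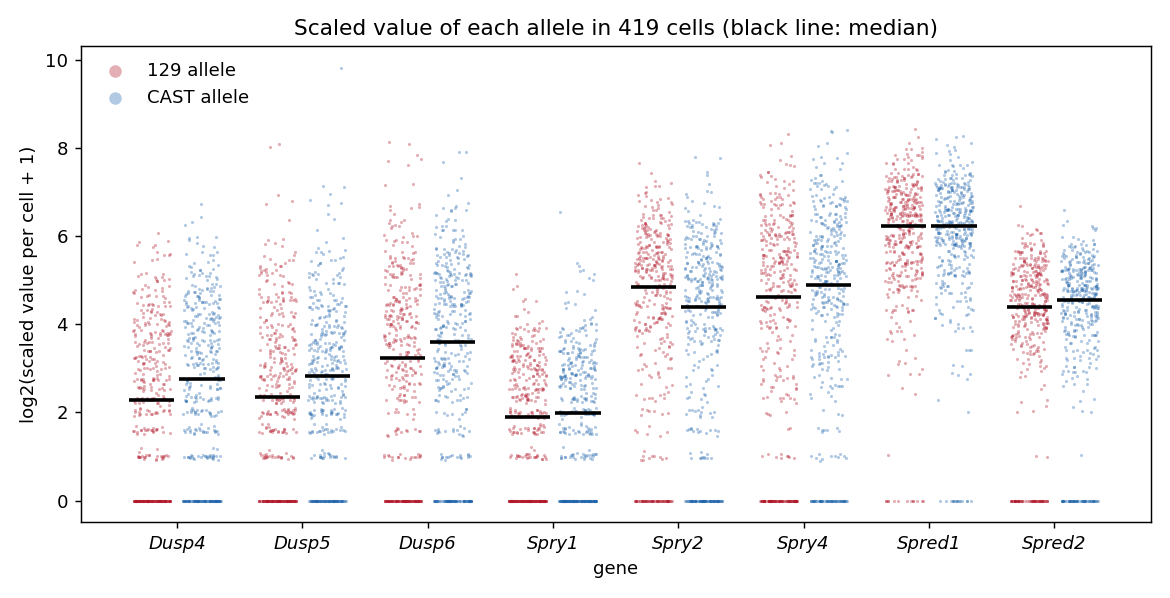
Each point is 1 of 419 cells; the vertical axis is log2(scaled value + 1) of 1 allele and the horizontal axis lists the 8 inhibitors, 129 in red to the left of CAST in blue, with black lines at the medians. Spred1 has the fewest cells at 0 on either allele, and the single CAST point near 10 in Dusp5 is the cell with 908 from CAST.

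The alleles contributed about equally to the pooled level. The 129 share was 50.1% ± 0.90 (SD over 5 lanes) for Spred1, 49.6% ± 3.95 for Spred2, 47.9% ± 3.68 for Dusp6 and 46.5% ± 2.95 for Spry4. It was 55.5% ± 2.52 for Spry2, between 53.4% and 59.0% in every lane, and 41.7% ± 3.94 for Dusp4, between 35.2% and 44.7% in every lane. Spry1 stood at 45.8% ± 5.24. Dusp5 stood at 43.9% ± 10.5, and its lanes ran from 32.2% in lane 2, which holds the cell with 908 from CAST, to 61.7% in lane 3, and without the 13 cells low in ES markers it was 47.3%. The Spry2 and Dusp4 lanes thus each lay on 1 side of an even split, while those of Dusp5 lay on both. Over all rows, X-linked and mitochondrial ones included, the mean cell total was 416357 from 129 and 509052 from CAST. An autosomal share is not given here.

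In single cells the alleles of several inhibitors were far from even. Of the cells with a Dusp5 value, 73 had 129 only, 101 had CAST only and 234 had both, so 42.6% had 1 allele, against 38.1% for alleles seen independently at the same rates. For Dusp6 the share with 1 allele was 38.4%, against 35.8% for independent alleles, for Spry2 30.3% against 29.4%, and for Spred2 28.1% against 25.6%. The other 4 genes had fewer such cells than independent alleles give: Spry1 with 47.9% against 50.9%, Dusp4 with 34.9% against 41.7%, Spry4 with 24.0% against 31.9% and Spred1 with 4.82% against 6.47%. An excess in 4 of 8 inhibitors stands beside a background of 65.2% of 6036 genes. With an allele counted as seen only at 5 or more, 1 inhibitor, Spred2, had an excess, beside 56% of genes. With all rows of a gene summed, the difference from independent alleles was -0.86 percentage points for Spred2 and 3.45 for Spry1, signs opposite to those above, and without lane 3 it was -0.02 for Spry2.

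The alleles of a gene can also be compared by level. Intrinsic noise is the mean squared difference between the mean-scaled alleles of a cell, halved as is usual, and its residual is the log2 distance from genes of like mean. The residual was 1.94 for Dusp5, 1.44 for Dusp6, 1.12 for Spry2, 0.96 for Spry4, 0.18 for Spred2, -0.03 for Dusp4 and -0.33 for Spred1. Spry1, with 4.17 from 129 and 4.96 from CAST per cell, lay under the minimum mean of 5 per allele. So 3 of the 7 measured inhibitors had a residual of 1 or more, that is at least 2 times the intrinsic noise of genes of like mean, beside 5.73% of the 6036 measured genes. Dusp6 kept 1.37 to 1.62 under every alternative that measured it. Dusp5 had 0.86 without lane 2, 0.94 without the highest cell of each gene, 0.78 with each allele limited to its 99th percentile and 1.05 without the 13 cells low in ES markers, and Spry2 had 0.98 without lane 6.

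Beside these residuals stands how often the tables held a one-sided or nearly the same value, among cells with at least 20 of a gene. The share of such cells with 1 allele only was 52.9% of 140 cells for Dusp5, 38.6% of 241 for Dusp6, 29.0% of 345 for Spry2, 26.5% of 34 for Spry1, 24.7% for Spred2, 16.5% of 316 for Spry4, 16.0% of 150 for Dusp4 and 3.22% of 404 for Spred1, beside a median of 14.6% over 6000 genes. The share whose alleles differed by at most 10% of their sum was 26.5% for Spred1, 22.0% for Dusp6, 19.3% for Dusp5, 15.4% for Spred2, 14.6% for Spry4, 11.9% for Spry2, 11.3% for Dusp4 and 8.82% for Spry1, beside a gene median of 16.8%. Both medians are over genes of differing levels and not of like mean, as the residual is, so they do not account for a gene's level. The 3 genes with a residual of 1 or more had the highest one-sided shares among these cells. Both measures come from the same values, and a one-sided cell itself raises the intrinsic noise, so they are not separate observations. The near-equal shares of these 3 genes lay on both sides of the gene median. Over all cells with a value, the near-equal share was 42.4% for Dusp5, 36.9% for Dusp6, 26.7% for Spred1 and 18.4% for Dusp4. It was 17.4% for Spry1, 14.9% for Spred2, 14.2% for Spry4 and 10.8% for Spry2. The sources used here do not give how reads with no strain difference were divided between the tables, and the part of that division in these allele values was not tested.

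**Figure D2:**
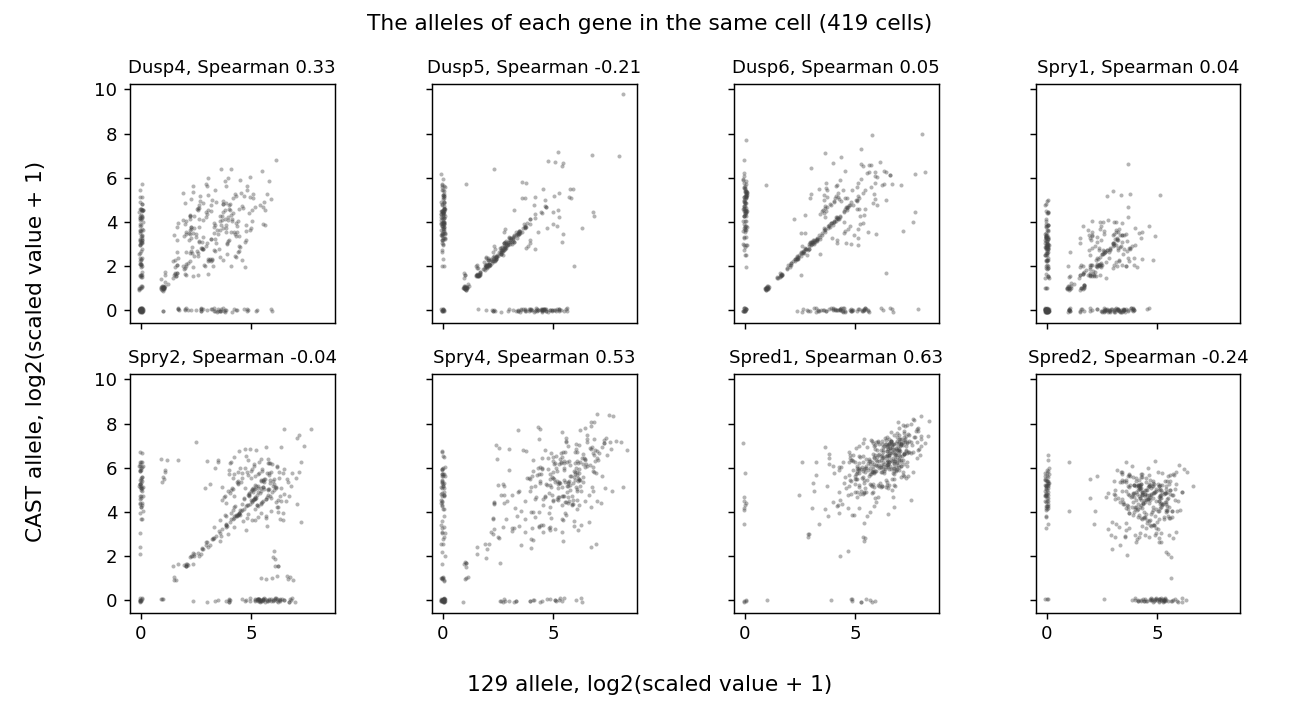
Each panel is 1 inhibitor and each point 1 of 419 cells, with log2(scaled value + 1) of the 129 allele on the horizontal and of the CAST allele on the vertical axis (points shifted slightly at random to separate them). Spred1, Spry4 and Dusp4 form rising clouds, with Spearman correlations of 0.63, 0.53 and 0.33, while Dusp5, Dusp6 and Spry2 show points on the axes and on a thin diagonal.

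Over the 419 cells, which share lanes and for which no separate cultures are named, the alleles of a gene rose and fell together most in Spred1, at a Spearman correlation of 0.63 (lanes 0.52 to 0.76), Spry4 at 0.53 (0.38 to 0.70) and Dusp4 at 0.33 (0.22 to 0.49). A correlation of at least 0.2 between own alleles was held by these 3 of 8 inhibitors and by 19.6% of 6036 genes. The correlation was 0.05 for Dusp6, 0.04 for Spry1 and -0.04 for Spry2. It was -0.24 for Spred2 and -0.21 for Dusp5, or -0.28 without the 13 cells low in ES markers, and 37% of genes lay at -0.2 or less, with a median over genes of -0.09. The shared noise, the covariance of the mean-scaled alleles, gave another order and leaned on single cells. It was 4.63 for Dusp5, 0.80 for Dusp6, 0.76 for Spry4, 0.71 for Dusp4, 0.30 for Spred1, 0.17 for Spry2 and -0.11 for Spred2, beside a median of -0.03 over genes. Without the highest cell of each gene it was 1.09 for Dusp5, 0.49 for Dusp6, 0.71 for Spry4, 0.59 for Dusp4, 0.28 for Spred1, 0.10 for Spry2 and -0.11 for Spred2. Dusp5 and Dusp6, with the highest shared noise over all cells, thus had own-allele rank correlations below that of Dusp4.

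Among themselves the inhibitors covaried. The 28 pairs had a median Spearman correlation of 0.24 over cells, with alleles summed, and 17 of them had at least 0.2, beside 2.32% of 44025036 pairs of genes, whose median was 0.01. At least 0.3 was reached by 10 pairs, beside 0.354% of all pairs, and -0.2 or less by none, beside 1.39%. The 10 pairs are those among Dusp4, Dusp6, Spry2, Spry4 and Spred1, which lay between 0.39 and 0.58, and between 0.41 and 0.57 without the 13 cells low in ES markers. Genes of all 3 kinds, nuclear and cytoplasmic phosphatase, Sprouty and Spred, are among these 5.

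The highest pair was Spry2 with Spry4 at 0.58 (lanes 0.43 to 0.70), and 19 cells were among the 42 highest of both. Dusp4 correlated with Spred1 at 0.52 (0.42 to 0.61) and with Dusp6 at 0.51 (0.44 to 0.63), and Spry4 with Spred1 at 0.51 (0.48 to 0.56). Dusp6 with Spry2 was the lowest of the 10 pairs, at 0.39 (0.25 to 0.52). Each of the 10 pairs was therefore positive in every lane. The median of all 28 pairs ran from 0.16 to 0.31 over the lanes, with 12 to 18 pairs at 0.2 or more, beside 6.79% to 8.53% of all gene pairs in a lane.

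Spred2 joined the 5 genes weakly, at 0.23 to 0.29. Dusp5 correlated with the phosphatases Dusp6 at 0.25 (lanes 0.09 to 0.41) and Dusp4 at 0.23 (0.00 to 0.40), and with the other 5 inhibitors between -0.05 and 0.06. Without the 13 cells low in ES markers it had 0.26 with Dusp6, 0.22 with Dusp4, 0.11 with Spred2, 0.10 with Spry4, 0.09 with Spred1, 0.07 with Spry1 and -0.01 with Spry2. Spry1, the lowest per kilobase, had no correlation above 0.10. Against the mean rank of the other 7 genes, Dusp4 correlated at 0.63, Spry4 and Dusp6 at 0.59, Spred1 at 0.55, Spry2 at 0.52, Spred2 at 0.32, Dusp5 at 0.14 and Spry1 at 0.12. Without the 13 cells these were 0.64, 0.62, 0.60, 0.56, 0.52, 0.32, 0.19 and 0.10. A score of all 8 genes, their mean rank per cell, correlated with the cell total at 0.05, with the number of transcripts above 0 at -0.03, with the ribosomal RNA share at -0.03 and with the mitochondrial share at -0.09.

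The covariation was also present across alleles, that is between 129 of one gene and CAST of another. The alleles stand in different tables, but how reads with no strain difference were divided between the tables is not given. Reads divided between both tables would carry covariation across alleles, and the part of such reads was not tested. Across alleles 9 of 28 pairs had at least 0.2, beside 0.319% of gene pairs, and the median was 0.10, against 0.12 for the same allele of both genes. These values are means of both crossed directions, and on that measure the 10 pairs among the 5 genes lay between 0.19 and 0.41. In the single directions, Spry2 from 129 correlated with Spry4 from CAST at 0.38 and Spry2 from CAST with Spry4 from 129 at 0.27. Dusp4 from CAST correlated with Spred1 from 129 at 0.44 and Dusp4 from 129 with Spred1 from CAST at 0.34.

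**Figure D3:**
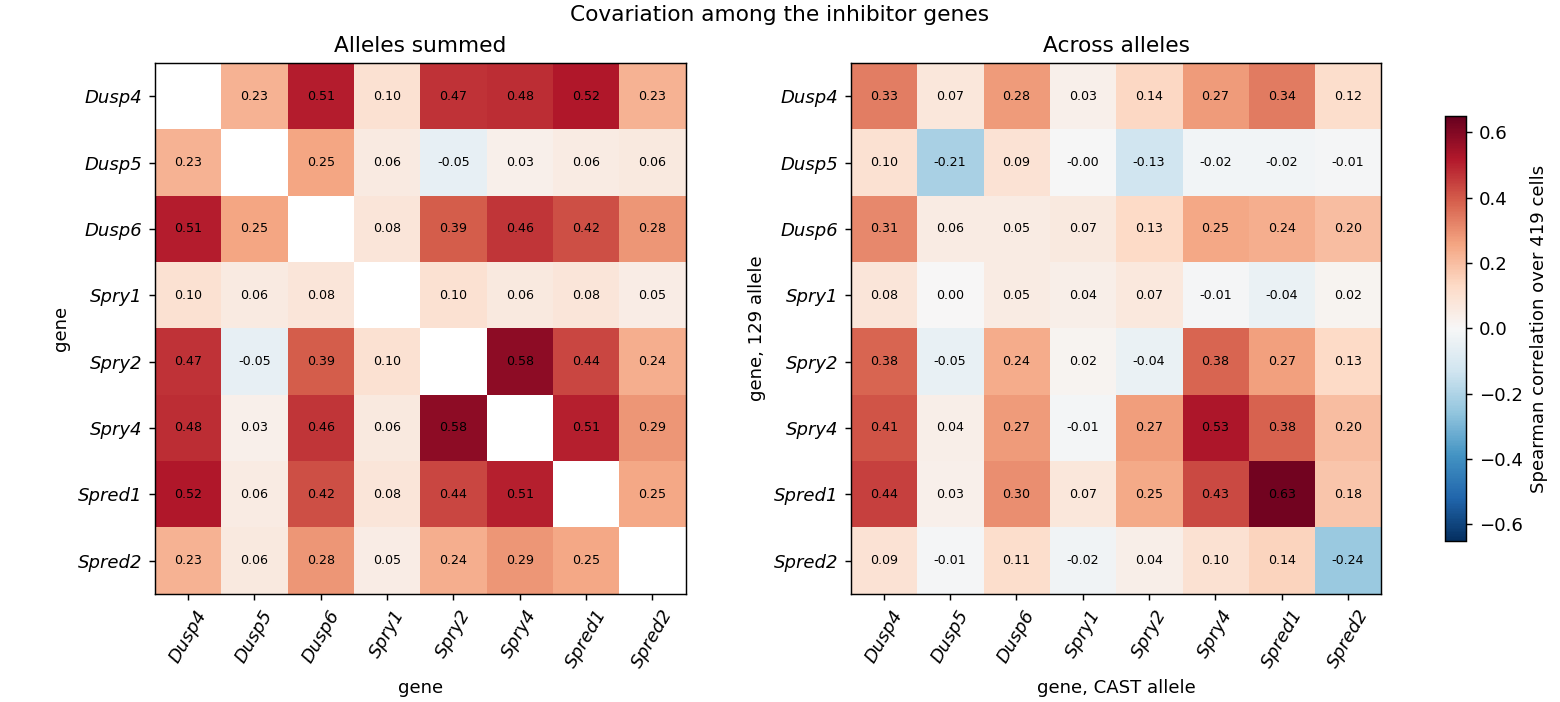
Spearman correlations over 419 cells between the inhibitors, as colour and number: alleles summed on the left, and on the right the 129 allele of the row gene with the CAST allele of the column gene, where the diagonal is a gene's own alleles. Dusp4, Dusp6, Spry2, Spry4 and Spred1 form the red block at 0.39 to 0.58 on the left, while the Dusp5 and Spry1 rows stay near 0 apart from Dusp5 with Dusp4 and Dusp6.

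Each gene was also set against the other 7 by the number of its alleles seen and by its level, 2 measures whose range differs between genes. For Spry4 and Dusp4 the number of alleles seen in a cell, 0, 1 or 2, correlated with the mean rank of the other 7 at 0.45 and 0.40. For Dusp6, Spry2 and Spred1 that correlation was 0.15, 0.15 and 0.21, with both alleles seen in 395 of 419 cells for Spred1. It was 0.16 for Spred2, 0.0009 for Spry1 and -0.04 for Dusp5, and no difference between these correlations was tested. In cells with both alleles, the level correlated with the other 7 at 0.66 for Dusp6 (250 cells), 0.58 for Dusp4 (244 cells), 0.54 for Spry2 (285 cells), 0.52 for Spred1 (395 cells) and 0.44 for Spry4 (294 cells). It was 0.25 for Spred2, 0.19 for Spry1 and 0.06 for Dusp5.

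Other genes of the pathway were set against the score of the 8 inhibitors from named lists. At 0.2 or more lay 3.26% of 9376 genes, and at -0.2 or less 1.46%. Of the genes that respond to ERK, 7 of 14 measured had at least 0.2 and 1 had -0.2 or less. The ETS factor Etv5, a known target of FGF signalling, was highest at 0.35, followed by Myc at 0.28 and the receptor Epha2 at 0.25. The ETS factors Ets2 (-0.24) and Elk1 (-0.19) and the early gene Fos (0.05) were lowest. The summed level of the list, in which genes of high level such as Etv5 weigh most, correlated with the score at 0.44. The same sum gave 0.34 for formative and primed genes, 0.06 for ligands, receptors and adaptors and -0.03 for the kinase cascade. It gave -0.13 for the other negative regulators and -0.17 for the naive genes.

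The components that carry the signal gave lower counts. Of the ligands, receptors and adaptors, 1 of 10 measured had at least 0.2, the adaptor Shc1 at 0.48, with the receptor Fgfr2 at 0.09 and the adaptor Gab1 at 0.03 next, and 1 had -0.2 or less, the FGF receptor adaptor Frs2 at -0.22. Fgf4, the ligand, was at -0.10 and the receptor Fgfr1 at -0.09. Of the kinase cascade, 0 of 14 had at least 0.2, with Braf at 0.20 just under and Map2k2 at 0.06, and 1 had -0.2 or less, the MEK gene Map2k1 at -0.27. The scaffold Ksr1 (-0.16) and Hras (-0.11) came next. Of the other negative regulators, 1 of 11 had at least 0.2, Il17rd (Sef), an inhibitor of FGF signalling, at 0.21, ahead of the phosphatases Dusp1 at 0.17 and Dusp7 at 0.14. Dusp9, an X-linked ERK phosphatase abundant in ES cells, had -0.31, while Dusp16 had -0.15 and Lztr1, an adaptor for the degradation of RAS proteins, had -0.07. The 4 lists together had 9 of 49 genes at 0.2 or more.

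Markers of cell state moved with the score in part. Of the naive genes, 0 of 10 had at least 0.2 and 3 had -0.2 or less: Prdm14 (-0.31), Nanog (-0.25) and Tfcp2l1 (-0.20), while Klf5 had 0.09, Esrrb 0.01 and Zfp42 -0.01. Of the formative and primed genes, 3 of 6 measured had at least 0.2, the DNA methyltransferases Dnmt3b at 0.31 and Dnmt3a at 0.20 and the POU factor Pou3f1 at 0.23, while Sall2 (-0.03), Sox4 (-0.04) and Zic2 (-0.12) had not. The inhibitors differed in this. Nanog had -0.27 with Dusp6 and with Dusp4 and -0.38 with Dusp5, against 0.05 with Spry4 and -0.01 with Spry2, and Klf5 had 0.26 with Spry2 and 0.25 with Spry4, against 0.02 with Dusp6 and -0.13 with Dusp5.

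Over all 9376 genes the highest correlations with the score were held by Ctbp2, a transcriptional corepressor, at 0.58 (lanes 0.43 to 0.70), the amino acid transporter subunit Slc7a7 at 0.55 and the zinc transporter Slc39a14 at 0.54. Next came the ubiquitin protease Zranb1 at 0.53, a neighbour of Ctbp2 on chromosome 7, the zinc finger gene Zfp532 at 0.51, Naprt, an enzyme of NAD synthesis, at 0.49, and Shc1 at 0.48. The helix-loop-helix factor Tcf15 and the nocturnin gene Noct each had 0.48. Lowest were the RAS-like GTPase Ralb at -0.41 (lanes -0.61 to -0.25), the autophagy receptor Calcoco2 at -0.37, the argininosuccinate synthase Ass1 at -0.35, and Fxyd6, a regulator of the sodium-potassium ATPase, and the calcium ATPase Atp2a2 at -0.34 each. Dusp9, Elk1 and other X-linked genes have values in the CAST table only.

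By single inhibitor, the gene with the most similar pattern over the 419 cells was another inhibitor for Dusp4, Dusp6 and Spry2. For Dusp5, Spry1, Spry4, Spred1 and Spred2 it was a gene outside the set. For Dusp4 they were Spred1 (0.52) and Dusp6 (0.51), and for Dusp6 they were Dusp4 (0.51) and Spry4 (0.46). Spry2 was most like Spry4 (0.58) and then Mkrn1, a ubiquitin ligase, at 0.51. Spry4 had 0.58 with Spry2, behind a gene that is not reported here. Spred1 was most like Naprt (0.57) and Slc39a14 (0.54), and Spred2 was most like Ctbp2 (0.30) and Zranb1 (0.29). Spry1 reached 0.26 with Btbd3 and 0.19 with Emsy, and 0.0107% of genes had at least 0.2 with it.

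Dusp5 was most like a different pair of genes, the urokinase receptor Plaur (0.34, lanes 0.22 to 0.41) and the integrin subunit Itgb1 (0.34, lanes 0.22 to 0.40). Of the naive genes, 8 of 10 had -0.2 or less with Dusp5, beside 2.42% of 9383 genes, led by Nanog at -0.38, Tfcp2l1 at -0.34 and Klf2 at -0.33. Of 16 genes known as SRF targets, a list picked after the data and the CArG boxes were seen, 11 had at least 0.2 with Dusp5, beside 3.91% of genes, among them the actin-binding gene Cnn2 at 0.28 and the focal adhesion gene Vcl at 0.27. With Dusp4, Dusp6, Spry1, Spry2, Spry4, Spred1 and Spred2 the counts were 2, 2, 0, 0, 0, 1 and 0 of 16, beside 2.57%, 1.55%, 0.0107%, 4.11%, 5.44%, 4.3% and 0.373% of genes. Without the 13 cells low in ES markers the Dusp5 counts were 5 of 10 naive genes at -0.2 or less, beside 0.698% of 9310 genes, and 5 of 16 SRF targets at 0.2 or more, beside 1.49%. Over all cells Dusp5 correlated with the ES marker sum at -0.27 and with the fibroblast marker sum at 0.21. The naive genes Nanog, Esrrb and Zfp42 are also among the 9 ES markers. The ES marker sum, and the cells left out by it, are therefore not a separate check on the naive genes. SRF targets are also high in fibroblasts, and the part of such cells in the Dusp5 values was not tested beyond leaving out the 13 cells.

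**Figure D4:**
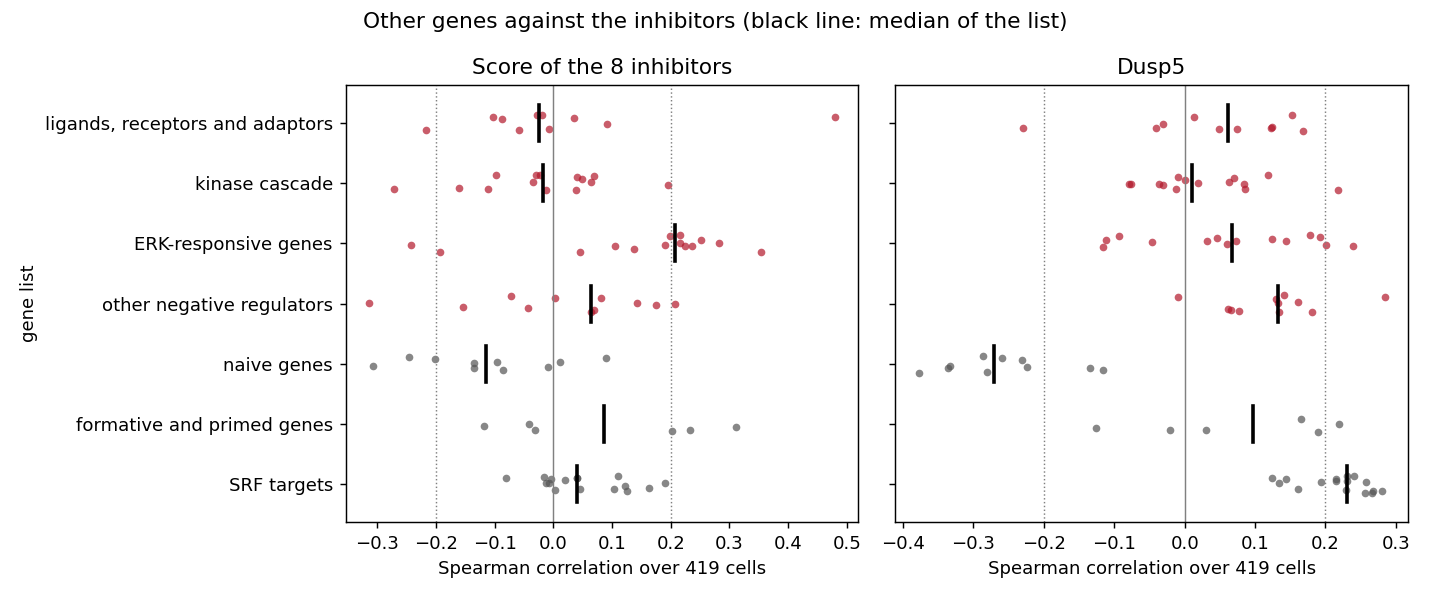
Each point is 1 gene of the list named at the left; the horizontal axis is its Spearman correlation over 419 cells with the score of the 8 inhibitors (left panel) or with Dusp5 (right panel), dotted lines mark -0.2 and 0.2, and black lines are medians. With the score the ERK-responsive genes lie to the right, with 7 of 14 at 0.2 or more, and with Dusp5 the naive genes lie to the left and the SRF targets to the right. The list of SRF targets was picked after the data and the CArG boxes were seen. Without the 13 cells low in ES markers, 5 of 16 SRF targets had 0.2 or more with Dusp5, and 5 of 10 naive genes had -0.2 or less.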

How the data were processed

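The deposited data are 2 tables, 1 per allele, each with 117762 Ensembl transcripts as rows and 419 cells as columns, matched to the samples by title with 0 columns left unmatched. The deposited values were treated as a score: whole numbers that the authors, to judge from the values, made by scaling estimated allele counts to similar totals and rounding. No count test or interval on reads was used. Per the submitters' processing notes, Bowtie 1.1.2 and mm10 were used, in roles that are not named; which tool assigned reads to alleles was not given in the sources used here. Rows were joined to GENCODE vM21 (116919 matched), and each gene stands as the row with its largest sum. Cell totals were scaled to their mean. Noise was measured for 6036 autosomal genes whose alleles differed and each averaged 5 or more, at a 129 share of 10% to 90%, and the residual is taken from the running median of 201 genes. Rows with all but identical alleles (534 genes) were left out. Correlations used 9384 genes averaging 5 or more per cell. Doublets were not called, and all cells were kept unless stated.

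The inhibitors, gene lists and limits were chosen with earlier results of these data known. Named beside the 8 inhibitors are the 3 highest and 3 lowest genes of each list by correlation with the score, the 10 highest and 5 lowest of all genes, without predicted symbols, and the 2 highest for each inhibitor, except genes that are not reported here; Fgf4, Fgfr1, the further Dusp5 examples and the per-inhibitor values of Nanog and Klf5 were picked after their values were seen. The steps were tested on simulated data. The software was numpy 2.4.6, scipy 1.17.1, pandas 2.3.3 and matplotlib 3.10.9 under Python 3.11.15.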

Additional observations from a re-analysis of the deposited data

How the results depend on the processing

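The processing was varied 1 choice at a time. The mean level over the 8 inhibitors was 42.9 per cell, and 50.7 with all rows of a gene summed. The count of inhibitors with more single-allele cells than independent alleles give was 4, and 1 with an allele counted as seen at 5 or more. At a limit of 0.3 in place of 0.2, 10 of 28 pairs passed, and so did 2 of 49 pathway genes, beside 0.981% of all genes. Leaving out each lane in turn gave a mean level of 42.5 to 43.9, a mean 129 share of 46.9% to 48.3%, 2 to 3 inhibitors with a noise residual of 1 or more, 3 to 4 with an excess of single-allele cells, a median pair correlation of 0.22 to 0.26, 16 to 17 pairs at 0.2 or more, a median correlation across alleles of 0.09 to 0.11 and 8 to 10 pathway genes. Of the alternatives to these 8 results, 84 values stayed within the spread over lanes or within 1.5 times the count, and 4 moved further. Most of these results are levels, shares or counts, which cannot change sign. Of the values for single genes, 272 stayed and 16 moved. With an allele seen at 5 or more, the difference from independent alleles went from 4.55 to -8.99 for Dusp5. It went from 2.62 to -7.99 for Dusp6 and from 0.89 to -3.07 for Spry2. No paired analysis was possible because the cells form 1 group. Read depth is unknown, so the low values of Spry1 and the single-allele cells of all 8 genes cannot be told apart from missed molecules. Lanes are not cultures, and other cultures were not analysed here.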
